A study of Homo sapiens with 2 samples.

Results

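Heparan and chondroitin sulfate genes were examined in C4-2B cells, a human prostate cancer line that descends from LNCaP by way of C4-2 and grows without testicular androgen. A gene was a member if its symbol named a heparan sulfate sulfotransferase, an exostosin, a carbohydrate sulfotransferase, a chondroitin synthase or polymerizing factor, a syndecan, a glypican, a sulfatase of the SULF pair or a xylosyltransferase. HPSE, HPSE2, GLCE, DSE and SRGN were added by name. This gave 59 of the 25343 genes in the table. The C4-2B ENZR line is resistant to enzalutamide, an antiandrogen that blocks the androgen receptor, and was kept in RPMI medium with serum and 20 µM of the drug. The C4-2B Con line is sensitive and was kept in parallel in the same medium with DMSO. Each line gave 1 RNA-seq library, with 23479051 reads in genes for ENZR and 21024484 for Con. The titles of both samples carry the suffix shC, whose meaning the labels leave unstated. Resistance and the presence of the drug in the medium cannot be told apart in this design, and no value has a replicate, so the spread between cultures is unknown.

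Heparan sulfate and chondroitin sulfate are long sulfated sugar chains carried by core proteins, which together are called proteoglycans. Xylosyltransferases start both chains on a serine of the core protein. Exostosins then polymerise heparan sulfate and chondroitin synthases polymerise chondroitin sulfate, and sulfotransferases add sulfate groups at set positions. The sulfation pattern sets which growth factors, morphogens and proteases a chain binds at the cell surface, and in epithelial cells syndecans and glypicans are the main membrane cores.

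The 7 luminal prostate markers given here (KLK3, KLK2, TMPRSS2, HOXB13, FOLH1, KRT8 and KRT18) had reads in both libraries. They ranged from 3.72 to 994 CPM (reads of a gene per 1000000 reads of the library, scaled by the trimmed mean of M-values, TMM) in ENZR and from 72.2 to 1428 CPM in Con. KLK3 was both the lowest ENZR value and the highest Con value, and KLK2 was at 17.4 CPM in ENZR and 72.2 CPM in Con. TMPRSS2, HOXB13 and KRT18 were also lower in ENZR, while FOLH1 and KRT8 were higher. The luminal markers summed to 2055 CPM in ENZR and 3400 CPM in Con. The 3 mast cell markers were at 0 in both libraries. The 5 leukocyte markers summed to 5.30 CPM in ENZR and 3.43 CPM in Con, most of it LYZ. The 3 endothelial markers summed to 4.57 CPM in ENZR and 10.5 CPM in Con, with CDH5 at 0 in both. The 5 stromal markers summed to 47.4 CPM in ENZR and 20.8 CPM in Con. COL1A1 gave most of both sums, COL1A2 was at 0 in both libraries, and the part of stromal marker RNA in the results below was not tested.

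Heparan and chondroitin sulfate genes were more often higher than lower in ENZR, in a set chosen with earlier results of these data known. The comparison used the log2 of (ENZR CPM + 1) over (Con CPM + 1) for genes averaging at least 1 CPM over the 2 libraries, a level that 36 of the 59 members reached. Of these 36, 25 lay above 0 (69.4%, against 49.5% of all 13803 genes of that level) and 11 below. Their median log2 ratio was 0.37, against -0.0065 over all those genes. A gene was counted as 2-fold changed at a log2 ratio of 1 or more in size. By that rule 8 of 36 members were at least 2-fold higher in ENZR, a share of 22.2%, against 6.69% of all genes. One member, GPC6, was at least 2-fold lower, a share of 2.78%, against 4.64% of all genes. HS3ST1, CHST11 and CHST2 lay under 1 CPM in Con (0.588, 0.980 and 0.0980 CPM), so they passed the 1 CPM filter only through ENZR. GPC6 lay at 0.930 CPM in ENZR and passed it only through Con. A large ratio is partly built into such entry, and the same filter was applied to all genes. Ratios given below as folds are plain CPM ratios, each with the exact 95% interval that read counting alone allows (Clopper-Pearson), here called the counting interval. That interval lay above 1 for 22 of the 36 members (61.1%, against 34.6% of all genes), below 1 for 10 (27.8%, against 36.6%) and held 1 for 4, a statement on these libraries alone. In bulk RNA, fewer cells with a transcript and less transcript per cell cannot be told apart.

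**Figure D1:**
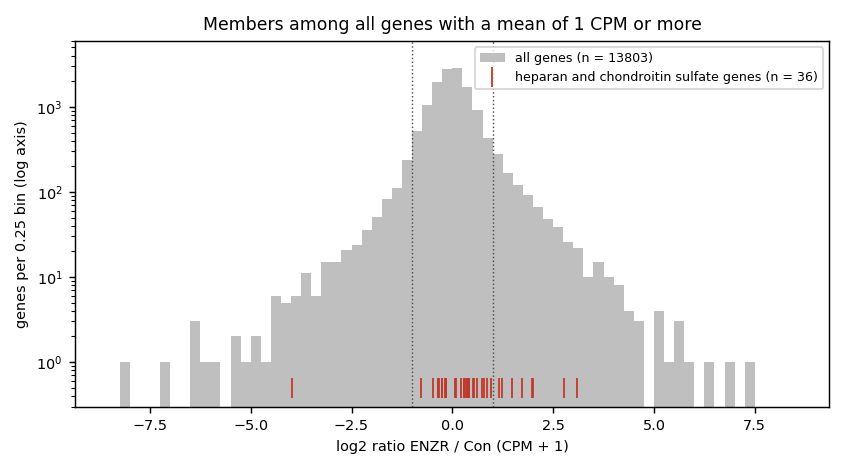
Histogram of the log2 ratio ENZR over Con (x axis, CPM plus 1) for all 13803 genes averaging at least 1 CPM, as genes per bin on a log axis; red ticks mark the 36 heparan and chondroitin sulfate genes and dotted lines mark 2-fold. Of the ticks, 8 lie at or right of the upper line and 1, GPC6, left of the lower one.

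The promoters of 4 members that lie far apart in the comparison are printed for reference: GPC6, the only member at least 2-fold lower in ENZR, and 3 that were at least 2-fold higher, HS3ST1, CHST11 and SDC4, all chosen after their values were seen. Each runs 5′ to 3′ on the gene's strand from 250 bases before to 50 bases after the annotated start, from RefSeq on GRCh38.p14. GPC6 is at chr13:93226557-93226856 (plus strand), HS3ST1 at chr4:11428845-11429144 (minus strand), CHST11 at chr12:104456698-104456997 (plus strand) and SDC4 at chr20:45348375-45348674 (minus strand). Capitals mark matches on either strand to 5 motifs: the GC box GGGCGG, the TATA box TATAAA, the E-box CACGTG, the androgen receptor hexamer AGAACA and the AP-1 site TGANTCA.
GPC6: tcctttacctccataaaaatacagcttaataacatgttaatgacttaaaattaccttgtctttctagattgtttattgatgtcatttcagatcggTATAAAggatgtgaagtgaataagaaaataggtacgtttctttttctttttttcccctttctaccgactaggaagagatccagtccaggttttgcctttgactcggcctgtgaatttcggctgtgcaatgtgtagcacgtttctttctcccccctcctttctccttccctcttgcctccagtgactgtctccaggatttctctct
HS3ST1: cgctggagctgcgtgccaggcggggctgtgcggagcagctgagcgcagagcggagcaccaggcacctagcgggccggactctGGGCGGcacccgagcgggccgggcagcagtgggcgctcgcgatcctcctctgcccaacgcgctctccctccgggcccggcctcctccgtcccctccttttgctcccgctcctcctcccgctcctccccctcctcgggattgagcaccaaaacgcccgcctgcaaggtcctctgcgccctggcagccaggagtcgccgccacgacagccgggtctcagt
CHST11: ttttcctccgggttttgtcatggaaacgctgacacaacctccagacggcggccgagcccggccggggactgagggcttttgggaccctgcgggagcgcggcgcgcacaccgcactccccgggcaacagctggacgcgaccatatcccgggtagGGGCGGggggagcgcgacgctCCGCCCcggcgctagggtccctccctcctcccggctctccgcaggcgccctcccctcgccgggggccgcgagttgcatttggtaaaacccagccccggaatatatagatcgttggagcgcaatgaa
SDC4: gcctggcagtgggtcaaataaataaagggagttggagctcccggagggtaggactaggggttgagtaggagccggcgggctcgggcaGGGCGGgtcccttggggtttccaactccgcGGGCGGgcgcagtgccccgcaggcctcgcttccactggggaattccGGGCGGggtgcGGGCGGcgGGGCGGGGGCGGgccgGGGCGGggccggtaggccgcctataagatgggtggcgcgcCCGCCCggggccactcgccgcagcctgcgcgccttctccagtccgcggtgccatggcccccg
The GPC6 window has a G and C share of 40%, against 73.0% for HS3ST1, 68.3% for CHST11 and 74.0% for SDC4. Its only match is the TATA box, while GC boxes are the only matches in HS3ST1 (1 match), CHST11 (2 matches) and SDC4 (8 matches, a pair of them end to end). A promoter was matched by symbol for 51 of the 59 members, leaving CHST1, CHST5, EXT1, EXTL3, GPC3, SDC2, SRGN and SULF1. Of the 51 promoters, 40 held a GC box (78.4%), against 69.6% of the 10013 promoters of genes averaging at least 1 CPM and 44.6% of all 27305 promoters. Unlike the 10013, the 51 include genes under a mean of 1 CPM. The androgen receptor hexamer was in 4 of 51 member promoters (7.84%), against 9.01% of expressed genes and 14.9% of all promoters. Among those 4 were CHST4 and HS3ST4, which had 0 reads in both libraries. The other shares over members, expressed genes and all promoters were 9.80%, 5.15% and 11.95% for the TATA box, 7.84%, 10.3% and 7.43% for the E-box, and 5.88%, 4.36% and 7.76% for the AP-1 site. These are letter matches in a window, not measured binding.

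The start of both chains depends on XYLT1 and XYLT2, the xylosyltransferases. XYLT2 was at 47.1 CPM in ENZR and 25.6 CPM in Con, 1.84-fold higher (1.66 to 2.05). XYLT1 had 9 reads in ENZR and 1 in Con, a ratio of 7.43 (1.03 to 326). Nearly all xylosyltransferase reads in both libraries thus came from XYLT2, whose level per kilobase of transcript was 16.8 CPM in ENZR and 9.11 CPM in Con. XYLT1 was at 0.0368 CPM per kilobase in ENZR and 0.00495 CPM in Con.

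None of the 4 heparan sulfate polymerases averaging at least 1 CPM reached 2-fold in either direction. EXT1 and EXT2 form the copolymerase that builds the chain. EXT2 was at 82.2 CPM in ENZR and 53.0 CPM in Con, 1.55-fold higher (1.44 to 1.67), whereas EXT1 was at 12.1 CPM in ENZR and 15.7 CPM in Con, a ratio of 0.769 (0.654 to 0.903). The subunits of this pair thus lay on opposite sides of 1. EXTL2, which can end a chain early, was at 26.4 CPM in ENZR and 29.6 CPM in Con, and EXTL3, which adds the first glucosamine of heparan sulfate, at 52.5 CPM in ENZR and 58.5 CPM in Con. EXTL1, a related exostosin, had 21 reads in ENZR and 0 in Con. It was 5.78-fold higher with Con set to a floor of 3 reads, with a lower counting limit of 4.298-fold.

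N-sulfation is the first modification of heparan sulfate and is made by the NDST enzymes, which replace acetyl by sulfate. NDST1 was at 185 CPM in ENZR and 220 CPM in Con, a ratio of 0.841 (0.807 to 0.876). Its log2 ratio of -0.25 became 0.073 when the median of its chromosome, -0.32 on chromosome 5, was subtracted, so its direction turned under that alternative, chosen after seeing the data. NDST2 was at 29.4 CPM in ENZR and 27.5 CPM in Con, and its counting interval of 0.954 to 1.19 held 1. Per kilobase of transcript, NDST1 exceeded NDST2 in both libraries, at 32.2 CPM against 8.30 CPM in ENZR and 38.3 CPM against 7.79 CPM in Con. NDST3 had 14 reads in ENZR and 11 in Con, and NDST4 had 0 in ENZR and 1 in Con. GLCE, the epimerase that turns glucuronic into iduronic acid in heparan sulfate, was at 26.6 CPM in ENZR and 31.9 CPM in Con (ratio 0.834, 0.747 to 0.931). Summed over NDST1 to NDST4 and GLCE, the level was 241 CPM in ENZR and 280 CPM in Con, the only summed role group that was lower in ENZR, and NDST1 gave most of both sums.

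O-sulfation enzymes held HS3ST1, the member with the highest log2 ratio at a pseudocount of 1 CPM. With 0.1 CPM the ratio of CHST2, which had 2 reads in Con, was higher (5.04, against 4.20 for HS3ST1). HS3ST1, which adds the rare 3-O-sulfate that antithrombin recognises, was at 12.5 CPM in ENZR and 0.588 CPM in Con, from 310 reads in ENZR and 12 in Con. That is 21.3-fold higher with a counting interval of 12.03 to 41.7 and a log2 ratio of 3.09. The rest of the 3-O-sulfotransferase family had 27 reads or fewer per gene in each library. HS3ST3B1 had 26 reads in ENZR and 27 in Con, HS3ST3A1 had 14 in ENZR and 6 in Con, and HS3ST6 had 1 in ENZR and 0 in Con. HS3ST3A1 and HS3ST3B1 share a near-identical catalytic region, so the split of reads between them is uncertain. HS3ST2, HS3ST4 and HS3ST5 had 0 reads in both, which allows levels of up to 0.121 CPM in ENZR and 0.147 CPM in Con at 3 reads. These limits and the counting intervals cover counting error only.

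The main 6-O-sulfotransferases, HS6ST1 and HS6ST2, lay above 1 and the 2-O-sulfotransferase below. HS6ST1 was at 120 CPM in ENZR and 83.2 CPM in Con, 1.44-fold higher (1.36 to 1.53), and HS6ST2 at 12.6 CPM in ENZR and 6.03 CPM in Con, 2.09-fold higher (1.69 to 2.60). HS6ST2 had a log2 ratio of 0.95, just under the 2-fold rule. HS6ST3 had 1 read in ENZR and 8 in Con, and HS6ST2-AS1, an antisense RNA of HS6ST2, had none in either. HS2ST1, the only 2-O-sulfotransferase of heparan sulfate, was at 54.0 CPM in ENZR and 69.4 CPM in Con, a ratio of 0.779 (0.722 to 0.840). Among O-sulfation enzymes averaging at least 1 CPM, HS3ST1, HS6ST1 and HS6ST2 thus lay above 1 and HS2ST1 and HS3ST3B1 below, with 1 inside the interval of HS3ST3B1.

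Enzymes that trim heparan sulfate outside the cell were scarce apart from HPSE, the heparanase that cuts the chain. HPSE was at 9.30 CPM in ENZR and 8.87 CPM in Con, and its interval of 0.860 to 1.28 held 1. SULF1 and SULF2, which remove 6-O-sulfate from finished chains, had 18 and 20 reads in ENZR, against 0 and 7 in Con. SULF1, at 0.728 CPM in ENZR, was 4.95-fold higher with Con set to the floor of 3 reads, with a lower counting limit of 3.63-fold. The ratio of SULF2, 2.36, had an interval of 0.958 to 6.60. HPSE2, a heparanase relative without activity, had 0 reads in ENZR and 9 in Con. It was 3.63-fold lower with ENZR set to that floor, with a lower counting limit of 2.39-fold.

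**Figure D2:**
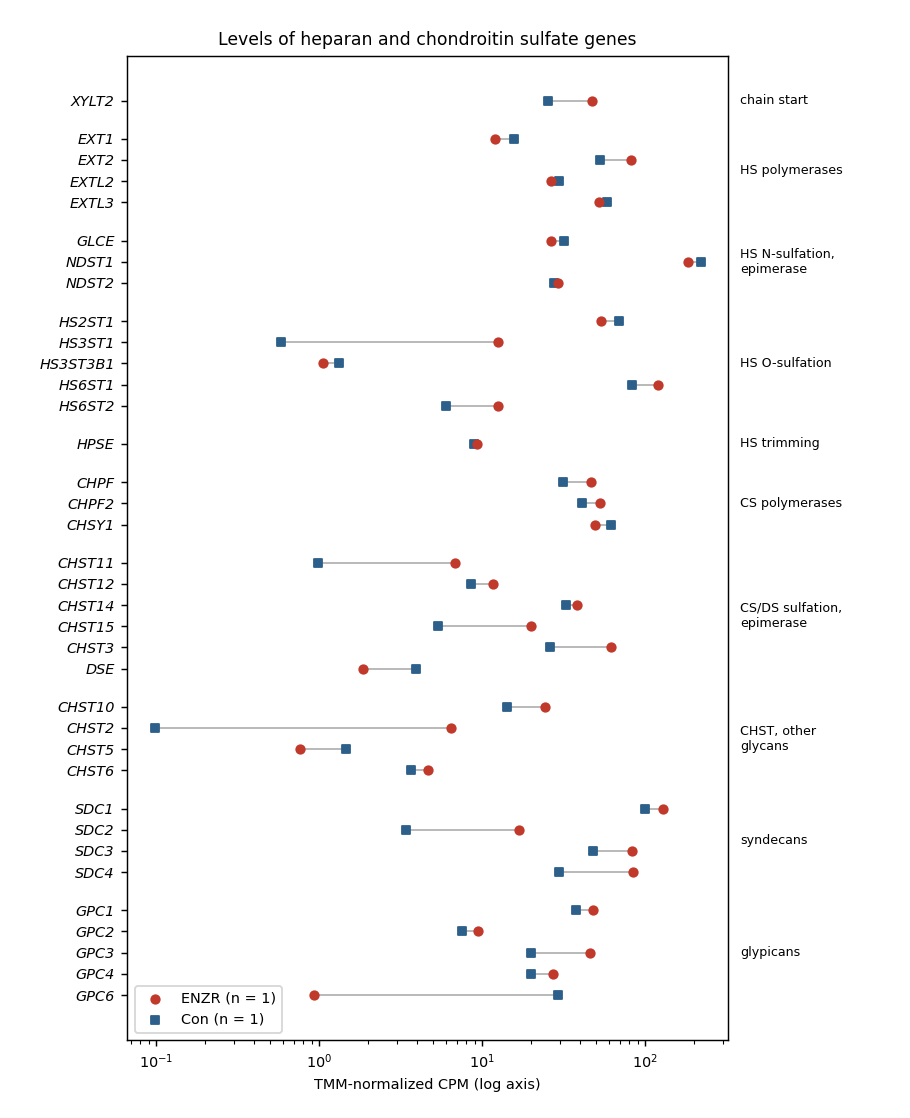
TMM-normalized CPM on a log axis for the 36 members averaging at least 1 CPM, in ENZR (red circles) and Con (blue squares), 1 library each, grouped by role; HS is heparan sulfate, CS chondroitin sulfate and DS dermatan sulfate. The longest lines belong to CHST2, HS3ST1 and GPC6, and GPC6 is the one whose ENZR point, 0.930 CPM, lies far to the left of its Con point, 29.4 CPM.

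None of the 3 chondroitin polymerases averaging at least 1 CPM reached 2-fold. CHPF and CHPF2, the polymerizing factors that work in complexes with the synthases, were at 46.5 CPM and 53.3 CPM in ENZR, against 31.5 CPM and 41.2 CPM in Con. Their ratios were 1.48 (1.34 to 1.63) and 1.30 (1.19 to 1.41). CHSY1, the synthase, was at 49.7 CPM in ENZR and 62.3 CPM in Con, a ratio of 0.798 (0.737 to 0.863), and CHSY3 had 14 reads in ENZR and 5 in Con. The summed level of the 4 genes was 150.1 CPM in ENZR and 135 CPM in Con.

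The 5 chondroitin and dermatan sulfotransferases of the CHST family averaging at least 1 CPM were all higher in ENZR, where 49.5% of all genes lay above 0. Of them 3 were at least 2-fold higher, against 6.69% of all genes. CHST11, a 4-O-sulfotransferase, was at 6.83 CPM in ENZR and 0.980 CPM in Con, from 169 reads in ENZR and 20 in Con, 6.97-fold higher (4.38 to 11.7). CHST15, which adds a second sulfate to 4-sulfated units, was at 20.0 CPM in ENZR and 5.39 CPM in Con, 3.71-fold higher (3.02 to 4.61). CHST3, the chondroitin 6-O-sulfotransferase, was at 62.1 CPM in ENZR and 26.1 CPM in Con, 2.38-fold higher (2.16 to 2.63). Enzymes of the 4-O, 6-O and disulfated patterns were therefore all among those at least 2-fold higher. CHST12, another 4-O-sulfotransferase, was at 11.6 CPM in ENZR and 8.57 CPM in Con, 1.36-fold higher (1.12 to 1.65). CHST14, the dermatan 4-O-sulfotransferase, was at 38.2 CPM in ENZR and 33.0 CPM in Con, 1.16-fold higher (1.05 to 1.28). CHST13 had 15 reads in ENZR and 3 in Con (ratio 4.13, 1.17 to 22.2), and CHST7 had 4 in ENZR and 3 in Con.

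DSE, the epimerase that converts chondroitin to dermatan sulfate, went the other way at 1.86 CPM in ENZR and 3.92 CPM in Con. Its plain ratio of Con over ENZR was 2.11 (1.45 to 3.10), but its log2 ratio of -0.78 did not reach the 2-fold rule. Over all 8 genes of chondroitin and dermatan sulfation, the summed level was 141 CPM in ENZR and 78.2 CPM in Con, 1.81-fold higher.

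The CHST family also holds enzymes that sulfate other glycans. CHST2, which sulfates N-acetylglucosamine in selectin ligands and keratan sulfate, had 159 reads in ENZR (6.43 CPM) and 2 in Con. Its ratio was 65.6 with a counting interval of 17.9 to 547, the widest among the 36 members because of the 2 reads in Con. CHST10, which makes the HNK-1 epitope of neural adhesion molecules, was at 24.4 CPM in ENZR and 14.3 CPM in Con, 1.71-fold higher (1.48 to 1.97). CHST5 and CHST6, N-acetylglucosamine sulfotransferases, are close copies of each other, so their split is uncertain. CHST5 had 19 reads in ENZR and 30 in Con, and CHST6 had 116 in ENZR and 75 in Con. CHST1 had 28 reads in ENZR and 16 in Con, CHST8 had 1 in ENZR and 3 in Con, and CHST4 and CHST9 had none in either library.

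**Figure D3:**
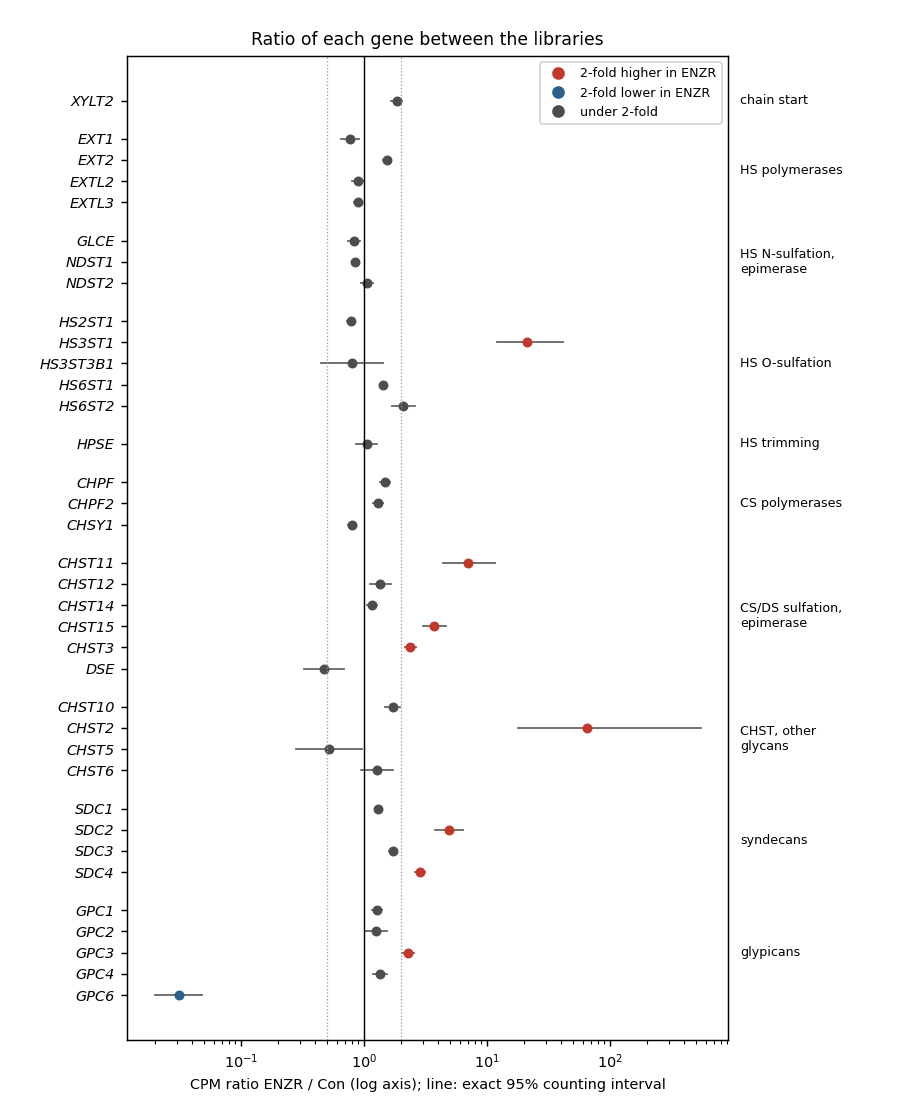
Plain CPM ratio of ENZR over Con on a log axis for the 36 members averaging at least 1 CPM, with lines for the exact 95% counting interval; colours follow the log2 ratio of CPM plus 1, so DSE and HS6ST2 stay grey although their plain ratios pass the dotted 2-fold lines. Red points stand in HS O-sulfation, CS/DS sulfation, the CHST enzymes of other glycans, syndecans and glypicans, and the polymerases and N-sulfation enzymes all lie between the 2-fold lines.

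All 4 syndecans, the transmembrane cores that carry mostly heparan sulfate, were higher in ENZR, where 49.5% of all genes lay above 0. SDC2 was at 16.8 CPM in ENZR and 3.43 CPM in Con, 4.91-fold higher (3.80 to 6.41). SDC4, a focal adhesion component, was at 83.9 CPM in ENZR and 29.5 CPM in Con, 2.85-fold higher (2.60 to 3.12). Both passed the 2-fold rule, as did 6.69% of all genes in that direction. SDC3 was at 83.5 CPM in ENZR and 48.2 CPM in Con, 1.73-fold higher (1.61 to 1.87), and SDC1, the main epithelial syndecan, at 129 CPM in ENZR and 99.99 CPM in Con, 1.29-fold higher (1.22 to 1.36). Per kilobase of transcript, the order in ENZR was SDC1 (41.0 CPM), SDC4 (32.1 CPM), SDC3 (20.9 CPM) and SDC2 (11.6 CPM). In Con it was SDC1 (31.8 CPM), SDC3 (12.1 CPM), SDC4 (11.3 CPM) and SDC2 (2.36 CPM), so SDC4 stood above SDC3 in ENZR and near it in Con. The summed level of the syndecans was 313 CPM in ENZR and 181 CPM in Con, 1.73-fold higher (1.66 to 1.80).

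Glypicans, the cores tied to the membrane by a lipid anchor, held both a 2-fold higher and a 2-fold lower member. GPC6 was at 0.930 CPM in ENZR and 29.4 CPM in Con, from 23 reads in ENZR and 601 in Con, 31.7-fold lower in ENZR (20.9 to 50.3). GPC3, an oncofetal glypican, was at 45.8 CPM in ENZR and 20.0 CPM in Con, 2.29-fold higher (2.05 to 2.57). GPC1, GPC2 and GPC4 were higher by 1.27-fold, 1.25-fold and 1.35-fold, with intervals above 1. GPC5, the neighbour of GPC6 on chromosome 13, had 0 reads in ENZR and 2 in Con. Per kilobase of transcript, GPC6 was at 0.256 CPM in ENZR and 8.11 CPM in Con, and GPC3 at 19.3 CPM in ENZR and 8.40 CPM in Con, so GPC6 and GPC3 were near each other in Con and far apart in ENZR. The summed level of the 6 glypicans was 131 CPM in ENZR and 115 CPM in Con.

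GPC6, HS6ST3 and GPC5 are the 3 members on chromosome 13, and all had fewer reads in ENZR. HS6ST3 and GPC5 averaged under 1 CPM, and the counting interval of GPC5, 0 to 4.39, held 1. The 239 genes of chromosome 13 averaging at least 1 CPM had a median log2 ratio of -0.54, and so did the 10 of them nearest to GPC6. Of these 10, 4 were at least 2-fold lower and 1 at least 2-fold higher. Their log2 ratios ran from -3.40 to 1.83, against -3.98 for GPC6 itself. With the chromosome's median subtracted, the log2 ratio of GPC6 was -3.44. The antisense RNAs GPC6-AS1 and GPC6-AS2 had 0 reads in both libraries.

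SRGN, serglycin, the secretory granule core of blood cells, had 14 reads in ENZR and 5 in Con, a ratio of 2.31 (0.787 to 8.199).

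**Figure D4:**
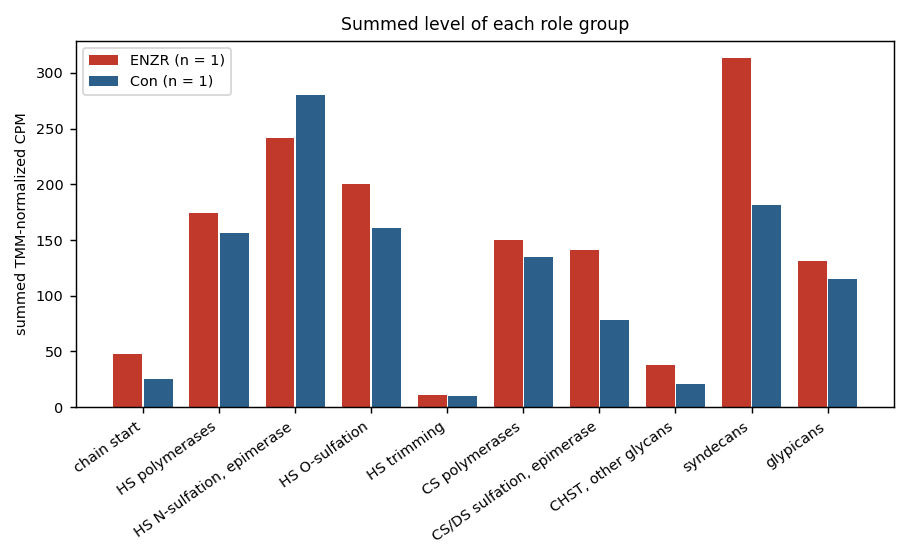
Summed TMM-normalized CPM of the members of each role group in ENZR (red) and Con (blue), 1 library each, all members included and the bars starting at 0. Syndecans stand at 313 CPM in ENZR and 181 CPM in Con, and the HS N-sulfation and epimerase group is the one with the lower bar in ENZR, at 241 CPM in ENZR and 280 CPM in Con.

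Other genes of the pathway were taken from a list of 57, of which 44 averaged at least 1 CPM. Of these, 2 passed the 2-fold rule as higher in ENZR (4.55%, against 6.69% of all genes) and 2 as lower (4.55%, against 4.64%), shares below or near the background, and the median log2 ratio was 0.037. Linker genes build or modify the sugar bridge between core and chain. The 5 of them averaging at least 1 CPM lay between log2 ratios of -0.43 (B3GALT6) and 0.19 (B3GAT3). Among the donor genes, UGDH, which makes UDP-glucuronic acid, was at 108 CPM in ENZR and 54.3 CPM in Con (ratio 1.98, 1.85 to 2.13), and PAPSS1, which makes the sulfate donor PAPS, at 78.1 CPM in ENZR and 44.3 CPM in Con (1.76, 1.63 to 1.91). SLC35B2 and SLC35B3, the transporters of PAPS into the Golgi, were lower in ENZR, with SLC35B2 at 69.9 CPM in ENZR and 110 CPM in Con, and SLC35B3 at 8.65 CPM in ENZR and 11.95 CPM in Con.

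DSEL, the second dermatan epimerase, was at 4.17 CPM in ENZR and 19.8 CPM in Con, 4.76-fold lower (3.83 to 5.97). Both dermatan epimerases, DSE and DSEL, were thus lower in ENZR while the 5 chondroitin and dermatan sulfotransferases of the CHST family averaging at least 1 CPM were higher. CSGALNACT1 and CSGALNACT2, which start the chondroitin chain, had ratios of 0.644 (0.483 to 0.858) and 0.625 (0.553 to 0.707). UST, the 2-O-sulfotransferase of chondroitin and dermatan, was 1.86-fold higher (1.46 to 2.38).

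All 17 genes listed under lysosomal breakdown, with SUMF1, SUMF2 and HYAL2 among them, averaged at least 1 CPM. Of these, 8 lay above 0 and 9 below. ARSG, the sulfatase that removes 3-O-sulfate from heparan sulfate, was at 4.003 CPM in ENZR and 16.9 CPM in Con, 4.22-fold lower (3.37 to 5.33). It is the lysosomal counterpart of the 3-O-sulfotransferases, of which HS3ST1 was higher and HS3ST3B1 had a ratio of 0.795 (0.446 to 1.42). Sulfation of the chains was not measured. GALNS, which removes 6-O-sulfate from chondroitin and keratan sulfate, was at 20.3 CPM in ENZR and 8.72 CPM in Con, 2.33-fold higher (1.96 to 2.78). Among other core proteins, BGN, biglycan, a small matrix proteoglycan, had 177 reads in ENZR and 5 in Con, a ratio of 29.2 (12.3 to 91.1). Of the stromal markers, COL1A1 was at 44.4 CPM in ENZR and 18.1 CPM in Con, and LUM had 32 reads in ENZR and 0 in Con. PDGFRB went the other way with 41 reads in ENZR and 50 in Con, as did COL3A1 with 0 in ENZR and 5 in Con. COL1A2 had 0 in both, and the part of stromal marker RNA in the BGN value was not tested. AGRN, agrin, was at 207 CPM in ENZR and 167 CPM in Con, HSPG2, perlecan, at 24.1 CPM in ENZR and 22.2 CPM in Con, and COL18A1 at 30.2 CPM in ENZR and 21.3 CPM in Con. VCAN, CD44 and PTPRZ1 had 1 read in ENZR and 0 in Con each.

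**Figure D5:**
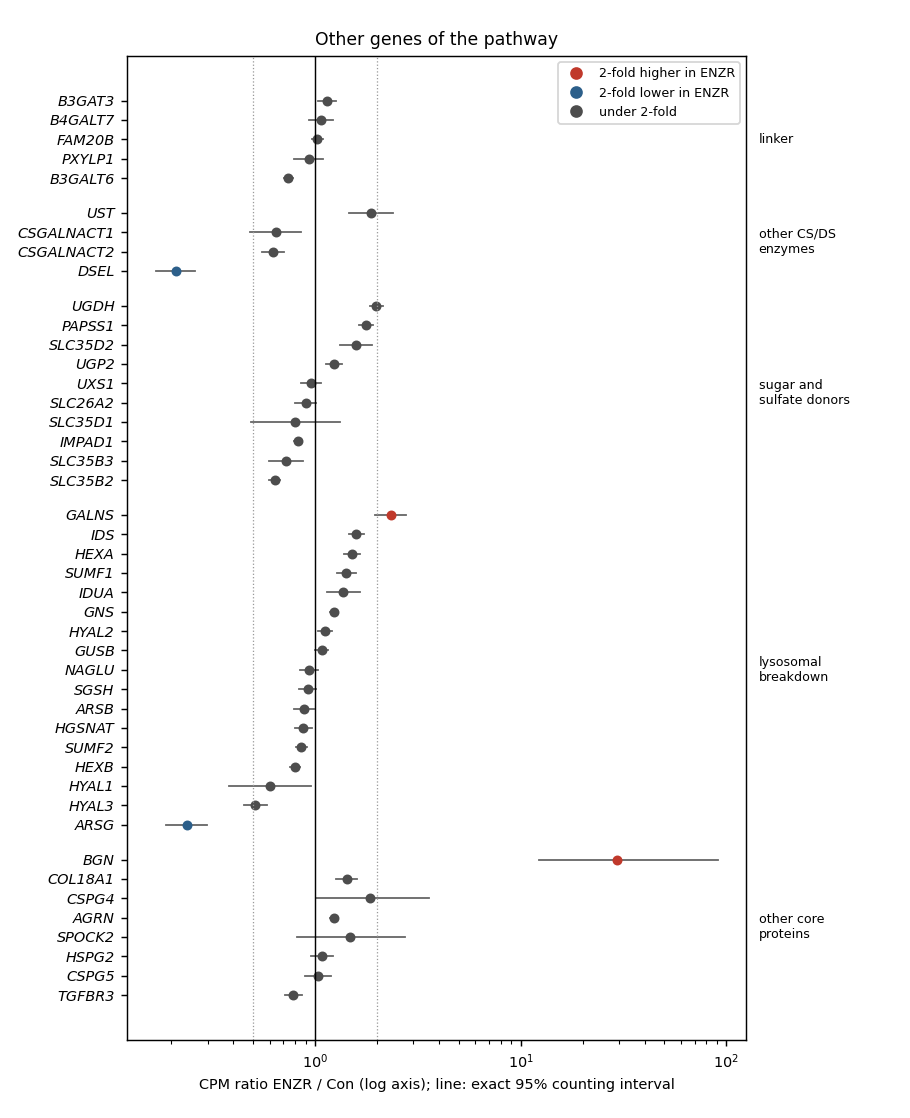
Plain CPM ratio of ENZR over Con on a log axis for the 44 other pathway genes averaging at least 1 CPM, with lines for the exact 95% counting interval and dotted lines at 2-fold. BGN and GALNS are the red points, DSEL and ARSG the blue ones, and the linker genes lie between the 2-fold lines.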

How the data were processed

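RNA-seq values were analysed for 1 library of C4-2B ENZR and 1 of C4-2B Con. The deposited table gives TMM-normalized CPM, handled here as a signal value per gene and library that the authors scaled. Tools listed in the submitters' processing notes are edgeR, RSEM 1.2.15 and Bowtie2 2.1.0, with the build hg19 and no role stated for any. Annotation, strand use and filters were not given in the sources used here. Every value was a whole multiple of 1 step per column, so whole reads were recovered (100% of the values lay within 0.01 reads of whole in each library, 1 read being worth 0.0404 CPM in ENZR and 0.0490 CPM in Con). They may be rounded RSEM estimates, in which reads of similar genes are shared out. With 1 library per group a count test is left without residual degrees of freedom, so none was run, no gene was called by one, and no p-value is given.

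The log2 ratio of ENZR over Con used a pseudocount of 1 CPM and genes averaging at least 1 CPM. It understates the change of low genes. Plain ratios carry exact 95% Clopper-Pearson intervals from the reads. A library at 0 was set to a floor of 3 reads to give a fold, which leaves out counting error in the other library. The calculation was tested on reads simulated with counting error alone, which cannot show how it performs under spread between cultures. Every member was described, members under a mean of 1 CPM by reads, and other pathway genes past 2-fold were all named; those named under 2-fold were chosen after their values were seen. Members and lists were chosen with earlier results of these data known. Levels per kilobase used the median length of GENCODE 29 coding transcripts, which may differ from the authors' annotation. Chromosomes and gene order came from RefSeq (GRCh38.p14). Python 3.11.15, scipy 1.17.1, pandas 2.3.3 and matplotlib 3.10.9 were used. One gene of the cell marker lists is not reported here. Alternatives changed the pseudocount, filter, scaling and fold threshold.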

Additional observations from a re-analysis of the deposited data

How the results depend on the processing

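No paired analysis was possible because each group has 1 library, and for the same reason no replicate could be left out. All 9 members past 2-fold kept their direction and their side of the 2-fold rule under every alternative tried, except CHST11 with a pseudocount of 5 CPM, and CHST2 and CHST11 leave the comparison at a minimum mean of 5 CPM. The number of members at least 2-fold higher ran from 6 of 30 (minimum mean of 5 CPM, against 5.13% of all genes) to 9. It was 9 with a pseudocount of 0.1 CPM, against 8.26% of all genes, and under each other scaling, against 7.72% to 7.85%. At a fold threshold of 1.5 it was 13 of 36, against 13.6% of all genes. The number lower was 2 of 36 with a pseudocount of 0.1 CPM, against 5.82% of all genes. It was also 2 of 36 at the 1.5 threshold, against 12.9% of all genes. Among other pathway genes, the number higher was 1 with a pseudocount of 5 CPM and 1 with a minimum mean of 5 CPM. The shares of all genes there were 3.24% and 5.13%. Under each other scaling the number higher was 3, against 7.72% to 7.85% of all genes. At the 1.5 threshold, 7 of 44 were higher and 5 of 44 lower, against 13.6% and 12.9% of all genes. Fewer genes remain under the stricter filter. The median log2 ratio of the members ran from 0.28 (no filter) to 0.48. Undoing the TMM scaling moved the median of all genes by 0.11 and that of the members to 0.48. No scaling changed the sign of a member with a mean of 1 CPM or more. With the median of each gene's chromosome subtracted, an alternative chosen after seeing the data, NDST1 had a log2 ratio of 0.073 in place of -0.25. Depth limits the ratios of CHST2 and HS3ST1, with 2 and 12 reads in Con.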

Other observations

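GPC3, GPC4 and HS6ST2 are neighbours on the X chromosome and were all higher in ENZR, with log2 ratios of 1.16, 0.41 and 0.95. The 10 genes nearest to GPC3 that averaged at least 1 CPM, 5 on each side and with GPC4 and HS6ST2 among them, had a median log2 ratio of 0.090, and 0 of them were at least 2-fold higher and 1 lower. For the other members at least 2-fold higher, the median log2 ratio of the 10 nearest such genes was 0.11 for HS3ST1, 0.083 for CHST11, -0.077 for CHST15, 0.30 for CHST3, 0.34 for CHST2, 0.090 for SDC2 and 0.36 for SDC4. Among the 10 nearest genes, 2 were at least 2-fold higher for each of CHST2 and SDC2, 1 for each of HS3ST1 and CHST3, and 0 for CHST11, CHST15 and SDC4. At least 2-fold lower was 1 of those nearest to HS3ST1 and 0 of those nearest to the other 6. The highest log2 ratio among the nearest genes was 3.68 for SDC2 and 1.58 for CHST3, above their own 2.01 and 1.22. For the other members at least 2-fold higher, GPC3 included, it lay below the member's own value.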
